A study of Mus musculus with 8 samples.

Results

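Pericentral hepatocytes surround the central vein of the liver lobule, and 10 genes that depend on Wnt signalling in these cells were followed in the livers of DHT treated female mice. The genes were Glul, Oat, Cyp2e1, Cyp1a2, Slc1a2, Rhbg, Lgr5, Axin2, Tbx3 and Rgn. They were picked by name, with earlier results of these data known, and all 10 were found among the 14317 mouse genes of the deposited table. The 8 liver samples came from females on a western diet (WD), 4 with an empty pellet (Con-Veh) and 4 with a 10 mm pellet of dihydrotestosterone (Con-DHT), an androgen that cannot be converted to estrogen. Treatment began at 7 weeks of age and lasted 8.5 weeks, with pellets renewed on the way. The labels give the genotype of both groups as WT, and the methods of the study describe such controls as mice with a floxed allele and no Cre. The ovaries were intact and the mice were fasted overnight, so that in both groups the diet, the floxed allele and the fast were shared. RNA was taken from whole liver tissue, with 4 libraries per group.

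Values are the read counts of a gene divided by a size factor of its library. The Con-Veh libraries had 14240001 to 17815944 reads on genes, and the Con-DHT libraries 13123962 to 15205299. A value between 2.61 and 3.30 stands for 3 reads. The 9 hepatocyte markers examined were abundant in every library, with a summed value of at least 970986. Fewer pericentral cells and less RNA of a gene per cell cannot be told apart in whole tissue.

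Endothelial cells of the central vein secrete Wnt ligands and R-spondin, which keep beta-catenin stable in the hepatocytes next to them. Beta-catenin enters the nucleus and acts with TCF and LEF factors on DNA that carries the core letters CTTTGA. Pericentral hepatocytes are known for making glutamine from the ammonia that reaches them at the end of the sinusoid, for their cytochrome P450 enzymes and for bile acid synthesis, while periportal hepatocytes make urea and glucose. Many cytochrome P450 genes of the mouse liver are also known to differ between the sexes.

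RefSeq promoters on GRCm38.p6 were at hand for 6 of the 10 genes, Glul, Oat, Cyp2e1, Cyp1a2, Slc1a2 and Axin2. In the 250 bases before the start site, CTTTGA was sought on both strands, and it was found in 3 of these 6 and in 13.8% of 32851 mouse promoters of the same length. The sequences below are those of the 3 promoters with the core, of Glul, the gene most used to mark pericentral cells, and of Axin2, a widely used reporter of Wnt signalling. They are printed 5′ to 3′ on the strand of the gene and end at the base before the start site, and capitals mark the core, which reads TCAAAG where it lies on the opposite strand.
Cyp2e1: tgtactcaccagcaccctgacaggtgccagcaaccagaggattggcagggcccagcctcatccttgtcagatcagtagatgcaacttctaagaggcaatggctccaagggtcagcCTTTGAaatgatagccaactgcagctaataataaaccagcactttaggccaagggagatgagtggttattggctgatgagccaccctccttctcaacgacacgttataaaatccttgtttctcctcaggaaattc
Cyp1a2: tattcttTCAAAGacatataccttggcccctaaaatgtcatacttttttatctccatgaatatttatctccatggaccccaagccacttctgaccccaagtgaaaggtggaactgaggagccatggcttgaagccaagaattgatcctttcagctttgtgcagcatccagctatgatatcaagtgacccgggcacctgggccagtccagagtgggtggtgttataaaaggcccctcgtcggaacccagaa
Slc1a2: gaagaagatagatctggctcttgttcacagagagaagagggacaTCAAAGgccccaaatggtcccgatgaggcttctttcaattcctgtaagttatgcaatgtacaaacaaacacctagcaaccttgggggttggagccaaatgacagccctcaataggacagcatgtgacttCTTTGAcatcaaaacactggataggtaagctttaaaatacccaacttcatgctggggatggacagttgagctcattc
Glul: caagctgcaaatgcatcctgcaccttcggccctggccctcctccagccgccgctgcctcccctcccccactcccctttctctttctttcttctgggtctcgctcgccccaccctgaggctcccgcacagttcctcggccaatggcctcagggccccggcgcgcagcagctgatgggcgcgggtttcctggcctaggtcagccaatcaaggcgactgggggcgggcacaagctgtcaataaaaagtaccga
Axin2: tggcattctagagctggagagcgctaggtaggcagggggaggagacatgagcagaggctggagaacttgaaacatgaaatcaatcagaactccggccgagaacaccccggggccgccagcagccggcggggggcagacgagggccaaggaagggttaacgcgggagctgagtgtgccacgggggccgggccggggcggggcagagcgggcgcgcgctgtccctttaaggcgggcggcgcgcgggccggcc

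These intervals are chr7:140763569-140763818 on the plus strand for Cyp2e1, chr9:57683656-57683905 on the minus strand for Cyp1a2, chr2:102706188-102706437 on the plus strand for Slc1a2, chr1:153899679-153899928 on the plus strand for Glul and chr11:108920099-108920348 on the plus strand for Axin2. In Cyp2e1 the core stood 135 to 130 bases before the start. In Cyp1a2 it stood 243 to 238 bases before the start, on the opposite strand. Slc1a2, which encodes a glutamate transporter, held it at 206 to 201 bases before the start on the opposite strand and again at 77 to 72 on the strand of the gene. The first of these was also a match to the longer form CTTTGAT, which contains the core and occurred in 3.21% of all promoters. The promoters of Cyp2e1 and Cyp1a2 also held a TATA box (TATAAA), 31 to 26 and 29 to 24 bases before the start, against 12.4% of all promoters. None of the 6 held the xenobiotic response core GCGTG (28.2% of all promoters) or the STAT5 palindrome TTCNNNGAA (7.02%), in either orientation and in this window. Oat, the remaining gene with a sequence, held none of the motifs sought. The GC content ranged from 44.8% in Slc1a2 to 69.2% in Axin2.

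None of the 10 pericentral genes passed an adjusted p of 0.05 between Con-DHT and Con-Veh (limma, Benjamini-Hochberg over 14312 genes), where 7.21% of all tested genes did, 4.6% higher and 2.61% lower in Con-DHT. The same count of 0 was found with edgeR, which called 7.15% of all genes, 4.7% higher and 2.46% lower. DESeq2, the test used by the study and run here on the recovered reads, called 11% of all genes, 6.45% higher and 4.51% lower. With DESeq2 the count among the 10 genes was 1, and that gene was Lgr5. At an unadjusted p under 0.05 the limma count was likewise 1, Lgr5 again, against 23.2% of all genes. Con-DHT and Con-Veh livers overlapped in each of the 10 genes, while 15.1% of all tested genes showed no overlap. The median log2 fold change of the 10 genes was -0.05, beside -0.01 for all tested genes, with 4 above 0 and 6 below. The 95% interval held 0 in 9 genes and stayed within 1 on the log2 scale in either direction in 9 genes, with Lgr5 as the exception in both counts.

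**Figure D1:**
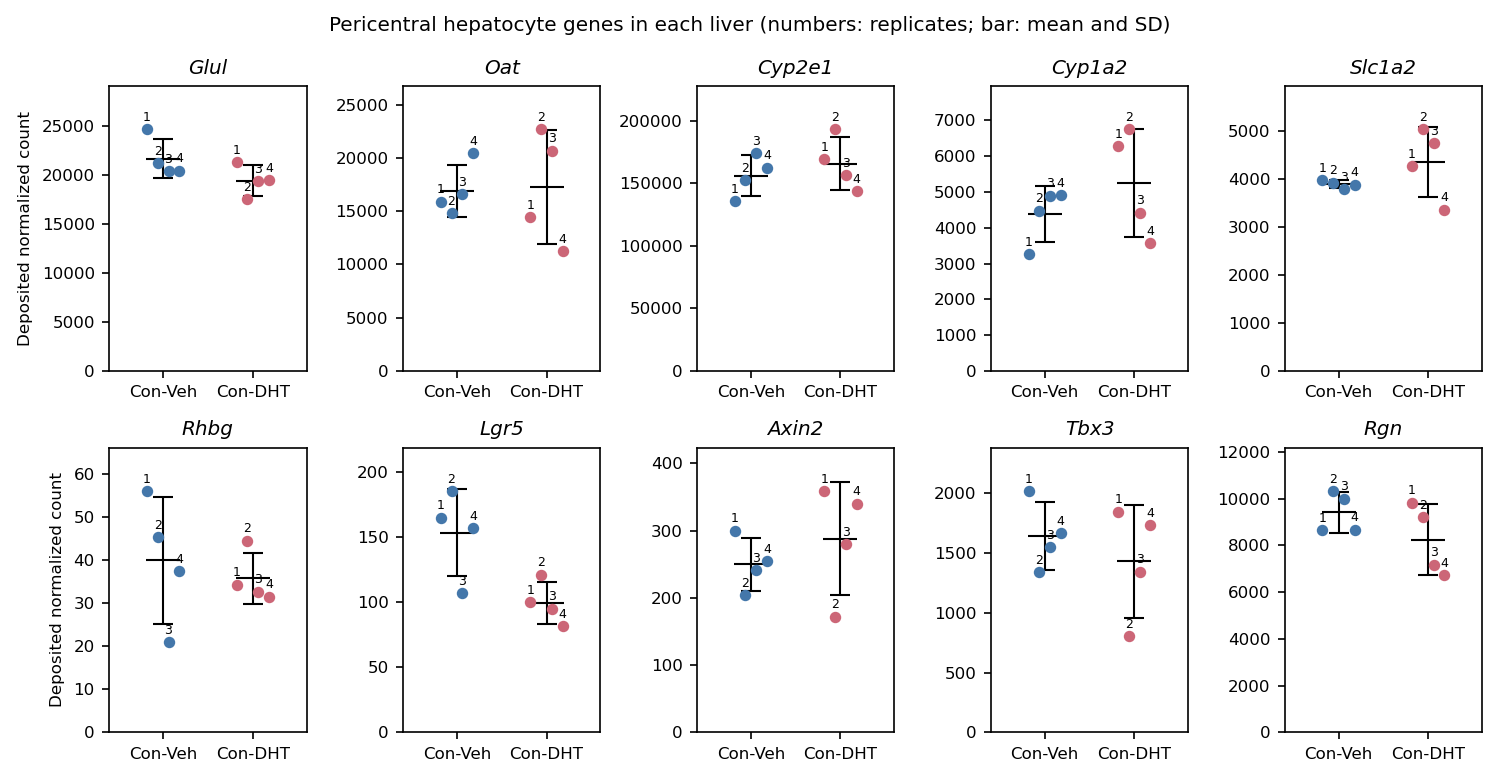
Deposited normalized count (vertical axis, linear, starting at 0) of the 10 pericentral genes in each Con-Veh (blue) and Con-DHT (red) liver, with replicate numbers above the points and bars for the mean and SD of 4 libraries. The groups overlap in every panel, and Lgr5 comes closest to separating, with 81.5 to 121 in Con-DHT and 107 to 185 in Con-Veh.

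Among the genes of glutamine synthesis, Glul encodes glutamine synthetase, which joins ammonia to glutamate in the last rows of hepatocytes before the central vein. Its values in Con-Veh were 24607, 21185, 20369.7 and 20417, and in Con-DHT they were 21291, 17483, 19357 and 19452. Con-Veh replicate 1 was the highest of the 8 and Con-DHT replicate 2 the lowest, and the other 6 lay close together. The mean was 21645 ± 2010 in Con-Veh and 19396 ± 1555 in Con-DHT (SD, n = 4). On the log2 scale Con-DHT minus Con-Veh was -0.16 (95% interval -0.39 to 0.08, SE 0.11, limma adjusted p = 0.41), and 0.04 when the libraries were scaled by the spike-ins. As a change in percent, the interval ran from -23.8 to 5.48, so that larger falls of Glul lay outside it.

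Oat encodes ornithine aminotransferase, a mitochondrial enzyme that turns ornithine into a precursor of glutamate, and it shares the narrow pericentral zone of Glul. The Con-Veh values were 15886, 14814, 16585 and 20419.7, and the Con-DHT values were 14436, 22661, 20677 and 11227. Both extremes of the 8 livers fell in the Con-DHT group, where replicate 2 was 2.02 times replicate 4. The means were 16926 ± 2440.4 and 17250.3 ± 5330.02 (SD, n = 4), higher in Con-DHT, while the difference of the mean logs, Con-DHT minus Con-Veh, was -0.02 (95% interval -0.48 to 0.45, SE 0.21, limma adjusted p = 0.97). The sign of this value turned under 6 of the 12 other settings, among them DESeq2 (0.03) and scaling by the spike-ins (0.18).

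Slc1a2 encodes the glutamate transporter GLT-1, which brings glutamate into pericentral hepatocytes. In Con-Veh it stood at 3979, 3920.3, 3787 and 3878, a coefficient of variation of 2.08%. In Con-DHT it stood at 4261, 5030.3, 4745 and 3358, a coefficient of variation of 16.9%. Replicates 1, 2 and 3 of Con-DHT were thus above every Con-Veh liver, and replicate 4 was below every one. From means of 3891 ± 80.8 and 4348 ± 733 (SD, n = 4), the log2 fold change came to 0.14 (95% interval -0.11 to 0.40, SE 0.12, limma adjusted p = 0.50).

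Rhbg encodes an ammonia transporter of the Rh family and was read least often, at 21 to 51 reads per library. Its values were 56.1, 45.4, 21.0 and 37.4 in Con-Veh and 34.3, 44.5, 32.7 and 31.5 in Con-DHT. The Con-Veh livers spanned the whole Con-DHT range, and counting error alone gives a coefficient of variation of 16.2% at this depth. The log2 fold change of -0.09 had a wide interval (-0.72 to 0.55 at 95%, SE 0.28, limma adjusted p = 0.89), and it was 0.11 with spike-in scaling. In percent this interval ran from -39.2 to 46.2, and the spread of Rhbg between Con-Veh livers was 37.0%.

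The cytochrome P450 genes of the group varied between livers but not between groups beyond that spread. Cyp2e1 encodes the P450 that oxidises ethanol, acetone and acetaminophen, and its mean was above that of 99.97% of the tested genes. Con-Veh livers held 135488, 152203, 174165 and 162424, and Con-DHT livers held 169292, 192960, 156620 and 143642. The lowest value belonged to Con-Veh replicate 1 and the highest to Con-DHT replicate 2, with the others interleaved. With means of 156070 ± 16395 and 165628 ± 21016 (SD, n = 4), Cyp2e1 had a log2 fold change of 0.08 (95% interval -0.35 to 0.52, SE 0.19, limma adjusted p = 0.84).

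Cyp1a2 encodes the P450 that metabolises caffeine and many aromatic amines, and it is a target of the aryl hydrocarbon receptor as well as of Wnt signalling. Its values were 3269, 4474, 4895 and 4917 in Con-Veh. In Con-DHT they were 6281, 6745, 4418 and 3568. Con-DHT replicates 1 and 2 exceeded all Con-Veh livers, while replicates 3 and 4 lay inside the Con-Veh range. This gave Cyp1a2 a log2 fold change of 0.23 (95% interval -0.23 to 0.69, SE 0.21, limma adjusted p = 0.55), which in percent is 17.4 with an interval from -14.5 to 61.1. It was 0.095 without Con-DHT replicate 2, 0.096 without Con-Veh replicate 1 and 0.40 without Con-DHT replicate 4.

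**Figure D2:**
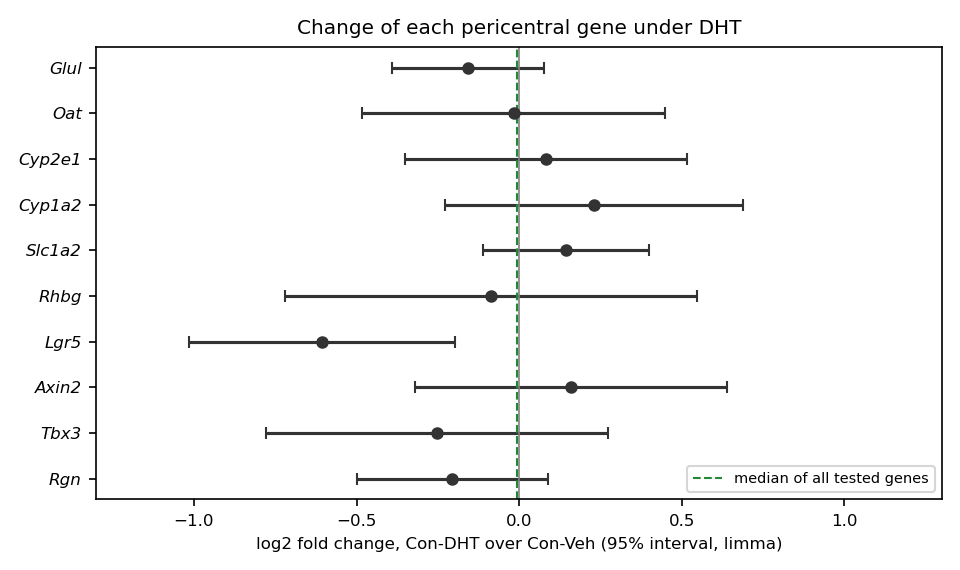
The log2 fold change of Con-DHT over Con-Veh (horizontal axis) of each pericentral gene by limma, as points with 95% intervals from 4 against 4 livers, with 0 as the grey line and the median of all tested genes (-0.01) as the dashed line. The interval of Lgr5, from -1.02 to -0.20, does not reach 0, and the other 9 do.

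Of the genes that act in the Wnt pathway or answer to it, and of all 10, Lgr5 had the largest log2 fold change in size. Lgr5 encodes a receptor for R-spondins, which raises the response of a cell to Wnt, and is itself switched on by beta-catenin. It was measured at 165, 185, 107 and 157 in Con-Veh and at 100.1, 121, 94.9 and 81.5 in Con-DHT. Only Con-Veh replicate 3 reached into the Con-DHT range, below the 121 of Con-DHT replicate 2. The mean was 153 ± 33.3 in Con-Veh and 99.4 ± 16.4 in Con-DHT (SD, n = 4). This was -0.61 on the log2 scale (95% interval -1.02 to -0.20, SE 0.18), or -34.4% with an interval from -50.6 to -12.8.

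The unadjusted p of Lgr5 was 0.0079 in limma, which placed it 1436th among 14312 genes, and the adjusted p was 0.078. With edgeR the adjusted p was 0.073 and with DESeq2 0.026. Without Con-Veh replicate 3 the limma value was 0.022 at a log2 fold change of -0.77, and with spike-in scaling it was 0.85 at -0.41. The call thus rested on the test and on 1 library, while the sign was negative in all 20 alternatives. Lgr5 had 75 to 192 reads per library, for which counting error gives a coefficient of variation of 8.84%. In Con-Veh replicate 3, where Lgr5 was lowest of its group, the stellate cell marker Reln was highest of the 8 livers (937). The other Con-Veh livers had 261 to 633, and replicate 4, with 633, had an Lgr5 value of 157. Of the other stellate markers, Lrat, Dcn, Pdgfrb and Colec11 were also highest in Con-Veh replicate 3. Des, Ngfr and Hgf were highest in Con-DHT livers. The part of stellate cells in the Lgr5 value was not tested. These markers were named after their values were seen.

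Axin2 encodes a scaffold of the complex that degrades beta-catenin, and its transcription by beta-catenin closes a negative feedback loop. The Con-Veh livers were at 300.1, 205, 242 and 255 and the Con-DHT livers at 359, 172, 279.6 and 340.2. Con-DHT replicate 2 was the lowest of all 8 and Con-DHT replicates 1 and 4 were the highest. For Axin2 the log2 fold change was 0.16 (95% interval -0.32 to 0.64, SE 0.22, limma adjusted p = 0.71), and with a library left out it ran from 0.035 without Con-DHT replicate 1 to 0.39 without Con-DHT replicate 2.

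Tbx3 encodes a T-box repressor and is a target of beta-catenin in pericentral hepatocytes. Its values were 2016, 1336, 1546 and 1663 in Con-Veh and 1844, 801, 1341 and 1732 in Con-DHT. As with Axin2, Con-DHT replicate 2 was the lowest of the 8 livers, and Con-DHT replicate 1 was 2.30 times as high. For Tbx3 it was -0.25 (95% interval -0.78 to 0.27, SE 0.24, limma adjusted p = 0.57), and it ran from -0.40 without Con-DHT replicate 1 to 0.00 without Con-DHT replicate 2.

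Rgn encodes regucalcin, a gluconolactonase on the path of ascorbate synthesis that also binds calcium. It stood at 8662, 10332, 10001 and 8671 in Con-Veh and at 9833, 9219, 7177 and 6742 in Con-DHT. Con-DHT replicates 3 and 4 were below every Con-Veh liver and replicates 1 and 2 were within their range. Means of 9416 ± 876 and 8243 ± 1513 (SD, n = 4) gave Rgn a log2 fold change of -0.21 (95% interval -0.50 to 0.09, SE 0.13, limma adjusted p = 0.39).

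Per kilobase of exon, which allows levels of different genes to be set side by side, the median over the 8 livers was 73921 for Cyp2e1, 10.7 times that of the next gene. Oat (6879.5 per kilobase), Glul (6137) and Rgn (5566) followed, and the ranges of neighbours in this trio overlapped, so that their order was not fixed by these livers. Cyp1a2 came next at 2327, below Rgn in every liver. Slc1a2 (301) and Tbx3 (242) formed an overlapping pair further down. Axin2 was at 48.6, and Rhbg (18.5) and Lgr5 (11.1), the ammonia transporter and the R-spondin receptor, were lowest, with overlapping ranges. Enzymes thus filled the upper part of the order, and the transporters, the Wnt components and the transcription factor the lower part.

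Livers of the same group differed in these genes. The median coefficient of variation of the 10 genes was 15.1% for Con-Veh and 17.6% for Con-DHT livers, beside 13.1% and 13.4% over all tested genes. It was wider in Con-DHT for 7 of the 10 genes, against 51.4% of all genes. Rhbg reached the highest value of any member in Con-Veh (37.0%) and Tbx3 in Con-DHT (33.0%).

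**Figure D3:**
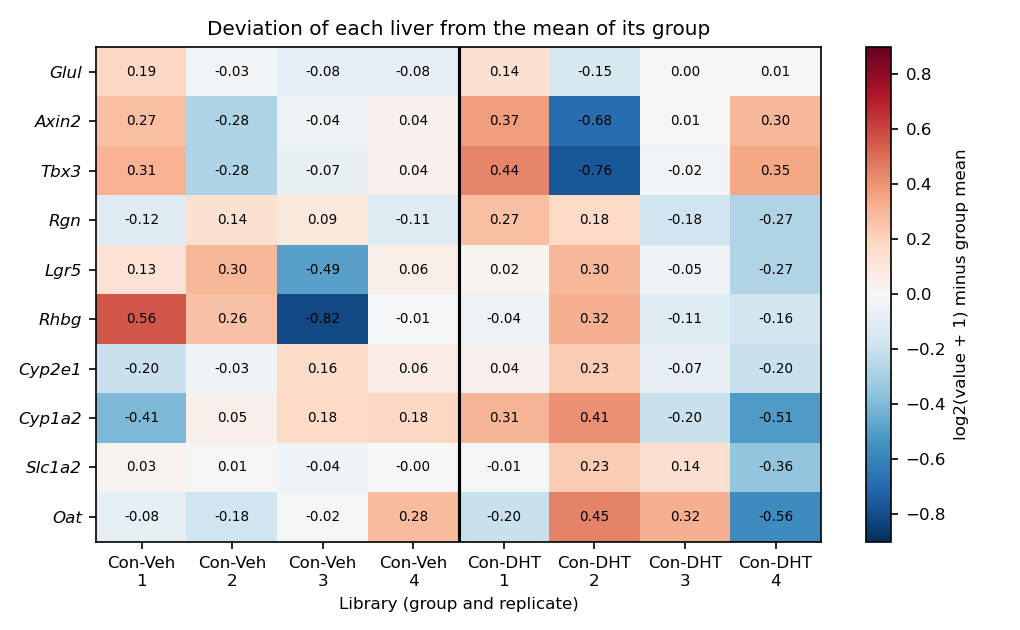
Deviation of each liver from the mean of its own group on the log2(value + 1) scale (colour and printed value) for the 10 pericentral genes (rows) and 8 libraries (columns, the line parts Con-Veh from Con-DHT). In Con-DHT replicate 2, Axin2 (-0.68) and Tbx3 (-0.76) are the lowest cells while Oat (0.45) and Cyp1a2 (0.41) are high, and Con-DHT replicate 4 is below its group mean in 7 rows.

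Within the Con-DHT group the livers divided the 10 genes, as the plot of deviations shows. Con-DHT replicate 2 was the highest of its group in 6 genes (Oat, Cyp2e1, Cyp1a2, Slc1a2, Rhbg and Lgr5) and the lowest in 3 (Glul, Axin2 and Tbx3), where it was highest in 23.7% and lowest in 24.3% of all tested genes. Con-DHT replicate 4 was the lowest in 7 of the 10 genes, against 27.3% of all genes. In a list of 37 other pericentral genes, replicate 2 was the highest of Con-DHT in 16 (43.2%) and replicate 4 the lowest in 20 (54.1%). Among 15 Wnt feedback and target genes, replicate 2 was the highest in 2 (13.3%) and the lowest in 6 (40%). In that list replicate 4 was the lowest in 5 (33.3%), and replicate 1 was the highest in 7 (46.7%, against 24.7% of all genes). These are descriptions of 4 livers, and the genes of one liver share its library and its dissection.

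Axin2 and Tbx3 ranked the livers alike in both groups. From highest to lowest the order was replicate 1, 4, 3, 2 in Con-Veh and 1, 4, 3, 2 in Con-DHT, and 48 of the 14312 tested genes (0.335%), these included, had that pair of orders. Glul had the same order in Con-DHT but not in Con-Veh. Cyp2e1, Cyp1a2, Rhbg and Lgr5 shared the Con-DHT order 2, 1, 3, 4 with 4.70% of all genes, and Oat and Slc1a2 shared 2, 3, 1, 4 with 5.51%. Replicate numbers are names and have no order of their own.

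The genes with the most similar pattern over the 8 libraries were sought for 3 members among 10716 genes with a mean of at least 50, by the mean absolute difference of log2 deviations from the mean of all 8 libraries, which holds the difference between the groups as well as that between livers. The nearest genes lie below the median of all genes searched by the way they were picked, so that gap is not a result. For Glul these were Nr2f6 (0.036), Exosc4 (0.040) and B4galt1 (0.041), where the median over all genes searched was 0.17. For Cyp2e1 they were Ipo5 (0.030), Aco1 (0.036) and Fopnl (0.041), with a median of 0.19. For Axin2 they were Gm5970 (0.087), Hira (0.097) and G6pc (0.11), with a median of 0.32. Tbx3, the member most like Axin2 on this scale, was at 0.21, with log2 fold changes of 0.16 for Axin2 and -0.25 for Tbx3 between the groups.

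**Figure D4:**
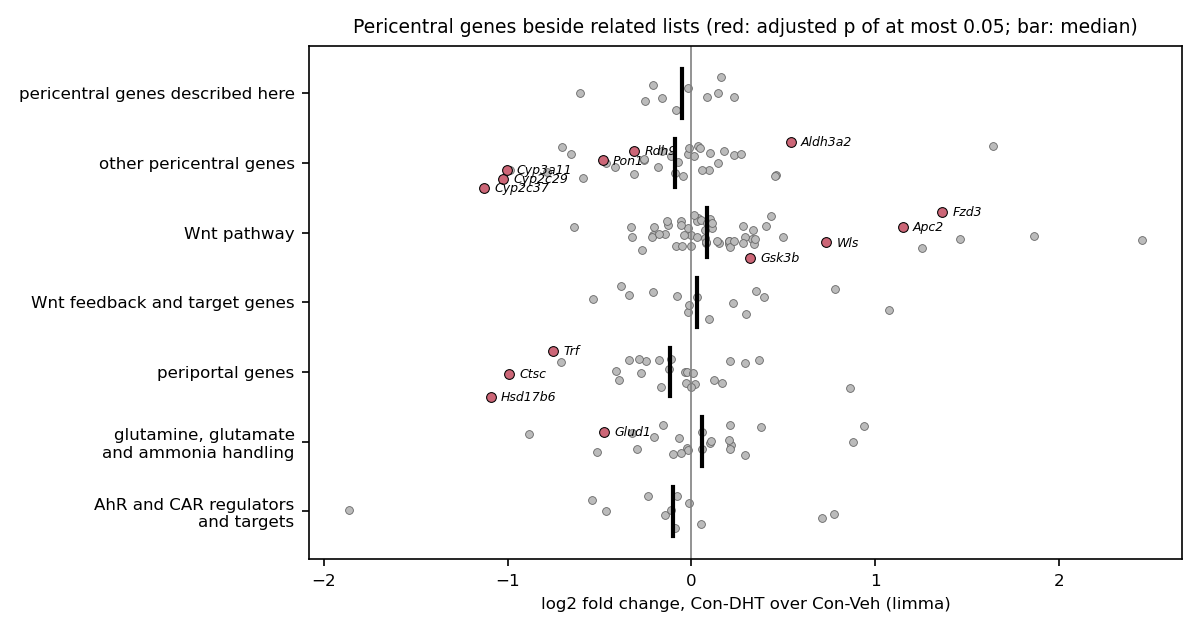
The log2 fold change of Con-DHT over Con-Veh by limma (horizontal axis) of every tested gene (points) in the 10 pericentral genes and 6 related lists (rows, spread vertically for legibility), with called genes in red and named and the median of each list as a bar, and 1 gene of the glutamine list left out. The called genes of the other pericentral list lie mostly to the left, down to -1.13 for Cyp2c37. All 4 called Wnt pathway genes lie to the right, and the share called in that list was 7.02%, against 7.21% of all tested genes.

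Other genes known to be highest near the central vein were examined as a list of 38, of which 37 were tested. This list too was chosen with earlier results of these data known. In this list 1 gene rose and 5 fell, 16.2% in all against 7.21% of all genes, and the median log2 fold change was -0.09. An unadjusted p under 0.05 was found for 16 of the 37 (43.2%, against 23.2% of all genes), and the groups did not overlap in 11 (29.7%, against 15.1%). The genes that fell were the P450 genes Cyp2c37, Cyp2c29 and Cyp3a11, Pon1 (paraoxonase 1) and Rdh9 (a retinol dehydrogenase). Cyp2c37 went from 13063 ± 1405 to 5999.5 ± 941 (SD, n = 4) with no overlap, which was -1.13 on the log2 scale (limma, SE 0.12, adjusted p = 0.00076). Cyp2c29 changed by -1.02 (limma, SE 0.19, adjusted p = 0.011) and Cyp3a11 by -1.01 (limma, SE 0.23, adjusted p = 0.028). These P450 genes have close copies in the genome, so that counting of uniquely placed reads leaves their single values uncertain. Pon1 was at -0.48 (limma, SE 0.10, adjusted p = 0.017) and Rdh9 at -0.31 (limma, SE 0.08, adjusted p = 0.046), both as log2 fold changes. With each library left out in turn, the call of Rdh9 held in 1 of 8 fits and that of Cyp3a11 in 4.

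Aldh3a2, a fatty aldehyde dehydrogenase, was the gene of that list that rose, from 10939.5 ± 1853 to 15758 ± 993 (SD, n = 4), by 0.54 on the log2 scale (limma, SE 0.13, adjusted p = 0.030), a call that held in 3 of the 8 fits. Mgst1, a glutathione transferase of membranes and the most abundant of the list, was at 19123 ± 1750.2 and 22365 ± 395 (SD, n = 4, adjusted p = 0.18 by limma). Beside these, Cyp2e1 and Cyp1a2 had intervals of -0.35 to 0.52 and -0.23 to 0.69. The list and the 10 genes were not tested against each other.

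Components of the Wnt pathway other than the 10 genes were listed as 69 symbols, of which 57 were tested. Of these 4 rose and 0 fell (7.02%, against 7.21% of all genes). With limma 16 had an unadjusted p under 0.05 (28.1%, against 23.2%). The median log2 fold change was 0.09. Wls, the carrier that brings Wnt ligands to the cell surface, went from 87.3 ± 11.7 to 146 ± 16.4 (SD, n = 4), a rise of 0.74 on the log2 scale (limma, SE 0.14, adjusted p = 0.011). Gsk3b, a kinase that marks beta-catenin for degradation, rose by 0.32 (limma, SE 0.08, adjusted p = 0.031), a call that held in 1 of the 8 fits. The Wnt receptor gene Fzd3 and the beta-catenin regulator gene Apc2 were near the floor in Con-Veh, at 6.72 ± 2.57 and 9.61 ± 2.78 (SD, n = 4), and rose by 1.37 (adjusted p = 0.035 by limma) and 1.15 (adjusted p = 0.049). The call of Fzd3 held in 2 of these 8 fits and that of Apc2 in 0.

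Ctnnb1, which encodes beta-catenin and was the most abundant of the Wnt list, was at 3090.3 ± 226 and 2908 ± 105 (SD, n = 4, log2 fold change -0.09, adjusted p = 0.53 by limma). The ligand genes of the central vein were scarce. Wnt2 was at 19.8, 37.6, 29.9 and 24.4 in Con-Veh and at 28.5, 21.3, 41.8 and 23.9 in Con-DHT. Rspo3, which encodes the R-spondin bound by Lgr5, was at 37.4, 29.9, 68.9 and 54.8 in Con-Veh and at 80.4, 42.6, 43.9 and 50.004 in Con-DHT. Both genes overlapped between the groups, with adjusted p values of 0.95 and 0.73 by limma. Wnt feedback and target genes were listed as 18 symbols, of which 15 were tested and 0 were called by limma, against 7.21% of all genes. An unadjusted p under 0.05 was found for 3 (20%, against 23.2%), and the median log2 fold change was 0.03. The largest mean of that list was that of Cyp27a1, a sterol hydroxylase of bile acid synthesis, at 6828 ± 414 and 6808 ± 1028 (SD, n = 4, adjusted p = 0.96 by limma).

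Genes that handle glutamine, glutamate and ammonia beside Glul and Oat were listed as 30, with 25 tested. Of these 1 rose and 1 fell (8%, against 7.21% of all genes) at a median of 0.06. By limma 8 had an unadjusted p under 0.05 (32%, against 23.2%). Glud1, the mitochondrial glutamate dehydrogenase, was the gene that fell, at 13492 ± 1191 against 18727 ± 1434 (SD, n = 4), or -0.47 on the log2 scale (limma, SE 0.10, adjusted p = 0.020). Slc38a4, an amino acid carrier and the most abundant of the list, had an adjusted p of 0.61 by limma at a log2 fold change of 0.10.

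Of 15 regulators and targets of the aryl hydrocarbon receptor and of the receptor CAR, which act on Cyp1a2 and on other pericentral P450 genes, 12 were tested. By limma 0 were called, against 7.21% of all genes, and 4 had an unadjusted p under 0.05 (33.3%, against 23.2%). Hsp90ab1, a chaperone of the aryl hydrocarbon receptor, had the highest mean, with -0.23 on the log2 scale (limma, SE 0.14, adjusted p = 0.34). At the other end of the lobule, 26 periportal genes were tested, and 8 had an unadjusted p under 0.05 (30.8%, against 23.2% of all genes). At a median of -0.12, 0 rose and 3 fell (11.5%, against 7.21%). These were Hsd17b6 (-1.09, adjusted p = 0.014 by limma), Ctsc (-0.99, adjusted p = 0.0090) and Trf (-0.75, adjusted p = 0.013), which encode a steroid dehydrogenase, the protease cathepsin C and transferrin. Pck1, the gene of gluconeogenesis with the highest mean of the list, had a log2 fold change of 0.29 (adjusted p = 0.32 by limma). The urea cycle genes Cps1 and Ass1 had log2 fold changes of -0.17 and -0.12 (adjusted p = 0.59 and 0.74 by limma), and like Wnt2 and Rspo3 they are named although the naming rule did not choose them. Scaled by the spike-ins, the call was kept by 1 of the 15 genes called in these lists, Fzd3 (adjusted p = 0.036 by limma). The log2 fold changes of others stayed large, as for Cyp2c37 (-0.93), Hsd17b6 (-0.89) and Wls (0.93). Spike-ins took 1.68% to 3.61% of reads in Con-Veh libraries and 2.22% to 2.75% in Con-DHT. The part of that spread in the lost calls was not tested.

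Markers of the cell types a liver sample holds moved with the groups in part. Over all tested genes 7.21% were called by limma and 23.2% had an unadjusted p under 0.05. Of 9 hepatocyte markers 2 fell, Trf and Serpinc1 (-0.38, adjusted p = 0.041 by limma). The summed value of the 9 ran from 1017570 to 1752900 in Con-Veh and from 970986 to 1126580 in Con-DHT. Alb alone, not called (adjusted p = 0.52 by limma), ran from 539803 to 1275380 in Con-Veh and from 549197 to 685092 in Con-DHT. Of 10 sinusoidal endothelial markers 2 fell, Stab2 (-0.55, adjusted p = 0.018 by limma) and Lyve1 (-1.26, adjusted p = 0.039), with sums of 5064 to 5790.3 and 3936 to 4729. Of 7 Kupffer cell markers 3 fell, Cd5l (-0.86, adjusted p = 0.0045 by limma), Vsig4 (-0.57, adjusted p = 0.012) and Clec4f (-0.40, adjusted p = 0.039), with sums of 6317 to 7843 and 4289.9 to 5904. An unadjusted p under 0.05 was found for 4 hepatocyte (44.4%), 5 sinusoidal endothelial (50%) and 7 Kupffer cell markers (100%). Log2 fold changes of these 3 cell types were below 0 in 7, 8 and 7 markers and above 0 in 2, 2 and 0. The 6 central vein endothelial markers tested were called in 0 cases by limma, with 1 at an unadjusted p under 0.05 and sums of 213 to 329 and 255 to 338. The stellate cell markers summed to 1438 to 3789 in Con-Veh and 2219 to 2590 in Con-DHT with 0 of 8 called by limma and 0 at an unadjusted p under 0.05, and the same counts were found for 5 cholangiocyte markers. Igkc, the lymphocyte marker tested, fell by 1.08 on the log2 scale (adjusted p = 0.042 by limma). With a library left out, the calls of Igkc and Serpinc1 held in 1 of 8 fits and those of Clec4f and Lyve1 in 2, and with spike-in scaling Lyve1 alone of these called markers kept its call (adjusted p = 0.023 by limma). The part of these cell types in the values of the 10 genes was not tested.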

How the data were processed

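RNA from 8 livers was sequenced by the authors, trimmed with Trimmomatic, aligned with STAR and counted as uniquely placed exonic reads with featureCounts. The build in the submitters' processing notes is GRCm39. The deposited values are a normalized signal, gene counts divided by a DESeq2 size factor per library. They were whole multiples of the worth of 1 read in 100% of cases (tolerance 0.01), which gave back the reads. Spike-ins took 1.68% to 3.61% of reads in Con-Veh and 2.22% to 2.75% in Con-DHT.

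Values were taken as log2(value + 1) for the 14312 genes whose mean reached 10 and compared in limma 3.58.1 (R 4.3.3, intensity trend, Benjamini-Hochberg, threshold 0.05), a scale that understates changes of low genes. Recovered reads were tested with edgeR 4.0.16 (quasi-likelihood, TMM) and DESeq2 1.42.0 (Wald). Tests were checked on simulated counts. Intervals are 95% intervals of limma. Other settings were pseudocounts of 0.1 and 5, no filter, a filter at 50, quantile normalization, totals without the Mup genes, spike-in scaling, no trend, array weights, a replicate block and each library left out.

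Groups and replicate numbers came from the labels, and the study describes 4 livers per group. The labels do not say which mouse gave each library, so p-values measure the spread between these samples. No batch is given. The members and lists were chosen with earlier results of these data known. Named genes were every member, the called genes and the most abundant gene of each list, and genes said to be outside that rule, and 1 called gene is not reported here. Promoters are from RefSeq on GRCm38.p6, which differs from the build of the files, so no other coordinates are given. Symbols were found for 14287 genes.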

Additional observations from a re-analysis of the deposited data

Results flagged for a closer look

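Of 84 groups of 4 libraries examined, 1 stood out by the distance of a single library from the others. Vsig4, a Kupffer cell marker, was at 389 in Con-DHT replicate 1 and at 287 to 295 in the other 3 Con-DHT livers. About 1 group in 20 is marked so by chance. None of the 20 groups of the pericentral genes was marked.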

How the results depend on the processing

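The count of pericentral genes called was 0 under every setting run except DESeq2 (1, Lgr5) and the fits that left out a library, where it ran from 0 to 1, the 1 again being Lgr5, without Con-Veh replicate 3. Over all genes 1032 were called, 648 with a mean of at least 50, 637 with spike-in scaling (562 higher, 75 lower), 1569 with DESeq2 and 633 to 905 when a library was left out, lowest without Con-Veh replicate 4. Equal totals without the Mup genes gave 1290 (1082 higher, 208 lower, against 658 and 374). Of 165 genes of the other lists 15 were called (6 higher, 9 lower), 30 with DESeq2 and 8 to 18 when a library was left out, lowest without Con-Veh replicate 4. Spike-in scaling gave 9 (8 higher, 1 lower), of which Fzd3 alone was among the 15.

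Spike-in scaling moved the median log2 fold change of all genes from -0.01 to 0.19, and the reversed values of Glul (0.042), Oat (0.18) and Rhbg (0.11) were below that median. Oat also reversed with quantile normalization (0.029), equal totals without Mup (0.081), array weights (0.027), edgeR (0.030) and DESeq2 (0.026), and Rhbg with equal totals without Mup (0.010). With a library left out, Oat ran from -0.17 to 0.17, Rhbg from -0.36 to 0.10 and Tbx3 from -0.40 to 0.0016, while Axin2 (0.035 to 0.39), Cyp1a2 (0.095 to 0.40), Cyp2e1 (0.0070 to 0.15), Slc1a2 (0.068 to 0.26), Glul (-0.20 to -0.094), Rgn (-0.30 to -0.12) and Lgr5 (-0.77 to -0.51) kept their sign. The cause was not tested. Rhbg had too low a mean for the filter at 50.

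With a replicate block, 700 genes, 0 pericentral genes and 9 genes of the other lists were called. Nothing in the labels ties same-numbered livers, and the correlations of their deviations were -0.19, -0.01, -0.02 and -0.08, so the numbers were not taken to pair them. No library correlated best with the library of its own number in the other group.

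Depth limits Rhbg (21 to 51 reads) and Lgr5 (75 to 192) most, and counting error was at most 2.55% for Glul, Oat, Cyp2e1, Cyp1a2, Slc1a2, Tbx3 and Rgn.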
